A study of Homo sapiens with 5 samples.

Results

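The 10 genes described here are feedback inhibitors and ligands of EGFR and MAPK signaling, and the question was where ATF3 bound around them before and after DNA damage. They are the Sprouty genes *SPRY1*, *SPRY2* and *SPRY4*, the dual-specificity phosphatase genes *DUSP1*, *DUSP4*, *DUSP5* and *DUSP6*, and the EGFR ligand genes *HBEGF*, *AREG* and *EREG*, 10 of 20136 protein-coding genes in the annotation. A ChIP-seq peak was assigned to a gene when it lay between 20 kb upstream of the transcription start site (TSS) and the end of the gene (GRCh37, the build of hg19). By this rule the genes held 20 of 33966 ATF3 peaks before camptothecin (CPT) and 41 of 70702 peaks after it.

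All 5 libraries came from HCT116, a human colon cancer cell line, and each condition had 1 library with no replicates. ATF3 was precipitated from 3 of them. ATF3-Ctrl was from ATF3-WT cells given DMSO, ATF3-CPT was from ATF3-WT cells exposed for 4 h to CPT at 1.5 μM, and ATF3-KO was from knockout cells given DMSO. CPT is a topoisomerase I inhibitor that causes DNA breaks. The antibody to p53 was used on p53-WT cells after the same CPT exposure (p53-CPT) and on p53-KO cells given DMSO (p53-KO), so these last 2 libraries differ in genotype and in treatment. The ATF3-KO cells were derived by AAV-mediated homologous recombination at exon 3 of *ATF3* and represent single clones. Chromatin of every library was crosslinked first with DSG (1 mM, 45 min) and then with formaldehyde (1%, 10 min).

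EGFR ligands are made as membrane-bound precursors, are released by proteases such as ADAM17 and bind EGFR family receptors, which turn on RAS and the RAF, MEK and ERK kinases. ERK signaling in turn switches on genes that limit it. Sprouty proteins restrain the pathway at or above RAF, and the DUSP proteins remove phosphate from MAP kinases. ATF3 is a stress-induced bZIP factor that binds ATF/CRE and AP-1 elements as a dimer.

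The sequences below are 9 ATF3-CPT peaks of these genes. They are examples of high signals, larger changes or the ATF/CRE cores described further on. The *AREG* intron 4 site is shown as the highest of the peaks listed only in ATF3-CPT. Not every peak of these kinds is shown, and the share with a core here does not stand for all peaks of the genes. They were read from the plus strand of GRCh37, 5′ to 3′. Capitals mark an exact ATF/CRE core (TGACGTCA) or AP-1 core (TGACTCA or TGAGTCA), and a peak with no capitals has neither core.
*SPRY1* promoter, chr4:124317823-124317947: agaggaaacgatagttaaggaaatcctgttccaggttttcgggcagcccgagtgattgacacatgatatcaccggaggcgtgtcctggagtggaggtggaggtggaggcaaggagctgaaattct
*DUSP1* promoter, chr5:172198271-172198395: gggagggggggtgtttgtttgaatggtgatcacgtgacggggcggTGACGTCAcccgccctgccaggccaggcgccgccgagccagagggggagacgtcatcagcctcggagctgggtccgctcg
*DUSP1* upstream site, chr5:172205306-172205430: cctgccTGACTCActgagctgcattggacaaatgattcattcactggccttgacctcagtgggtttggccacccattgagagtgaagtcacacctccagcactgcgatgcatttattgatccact
*DUSP5* intron 1 site, chr10:112261131-112261255: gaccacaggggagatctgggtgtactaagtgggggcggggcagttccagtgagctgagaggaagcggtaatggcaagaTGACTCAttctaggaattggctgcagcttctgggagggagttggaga
*HBEGF* intron 2 site, chr5:139724344-139724468: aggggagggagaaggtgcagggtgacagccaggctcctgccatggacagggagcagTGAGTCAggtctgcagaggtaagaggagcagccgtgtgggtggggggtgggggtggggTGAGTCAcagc
*HBEGF* upstream site, chr5:139737427-139737551: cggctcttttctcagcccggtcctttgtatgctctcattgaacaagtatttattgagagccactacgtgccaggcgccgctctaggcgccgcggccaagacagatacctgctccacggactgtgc
*AREG* promoter, chr4:75310696-75310820: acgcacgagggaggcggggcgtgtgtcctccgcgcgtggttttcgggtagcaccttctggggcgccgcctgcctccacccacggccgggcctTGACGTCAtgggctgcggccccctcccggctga
*AREG* intron 4 site, chr4:75317014-75317138: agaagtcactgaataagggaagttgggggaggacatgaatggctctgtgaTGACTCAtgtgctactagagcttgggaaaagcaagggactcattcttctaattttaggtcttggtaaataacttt
*EREG* intron 1 site, chr4:75240400-75240524: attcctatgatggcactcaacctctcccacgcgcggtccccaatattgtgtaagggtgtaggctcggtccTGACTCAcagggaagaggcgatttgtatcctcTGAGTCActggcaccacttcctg

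ATF3 peaks lay at 9 of the 10 genes in ATF3-Ctrl and at 9 in ATF3-CPT, against 65.2% and 81% of all protein-coding genes with a window of the same kind. *SPRY2* was the exception in both lists. Its nearest ATF3-Ctrl peak was centred at -187807 bp and its nearest ATF3-CPT peak at 116426 bp from the TSS. After CPT, 8 genes had more peaks than before, against 63.4% of all genes, and *SPRY1* had 1 peak in each list. The number of peaks went from 1 to 3 at *SPRY4*, from 5 to 7 at *DUSP1*, from 2 to 4 at *DUSP4*, from 4 to 8 at *DUSP5* and from 1 to 2 at *DUSP6*. Among the ligand genes it went from 3 to 5 at *HBEGF*, from 1 to 5 at *AREG* and from 2 to 6 at *EREG*. The windows of the 10 genes had a median length of 31.7 kb, shorter than the median of 47.2 kb over all protein-coding genes.

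**Figure D1:**
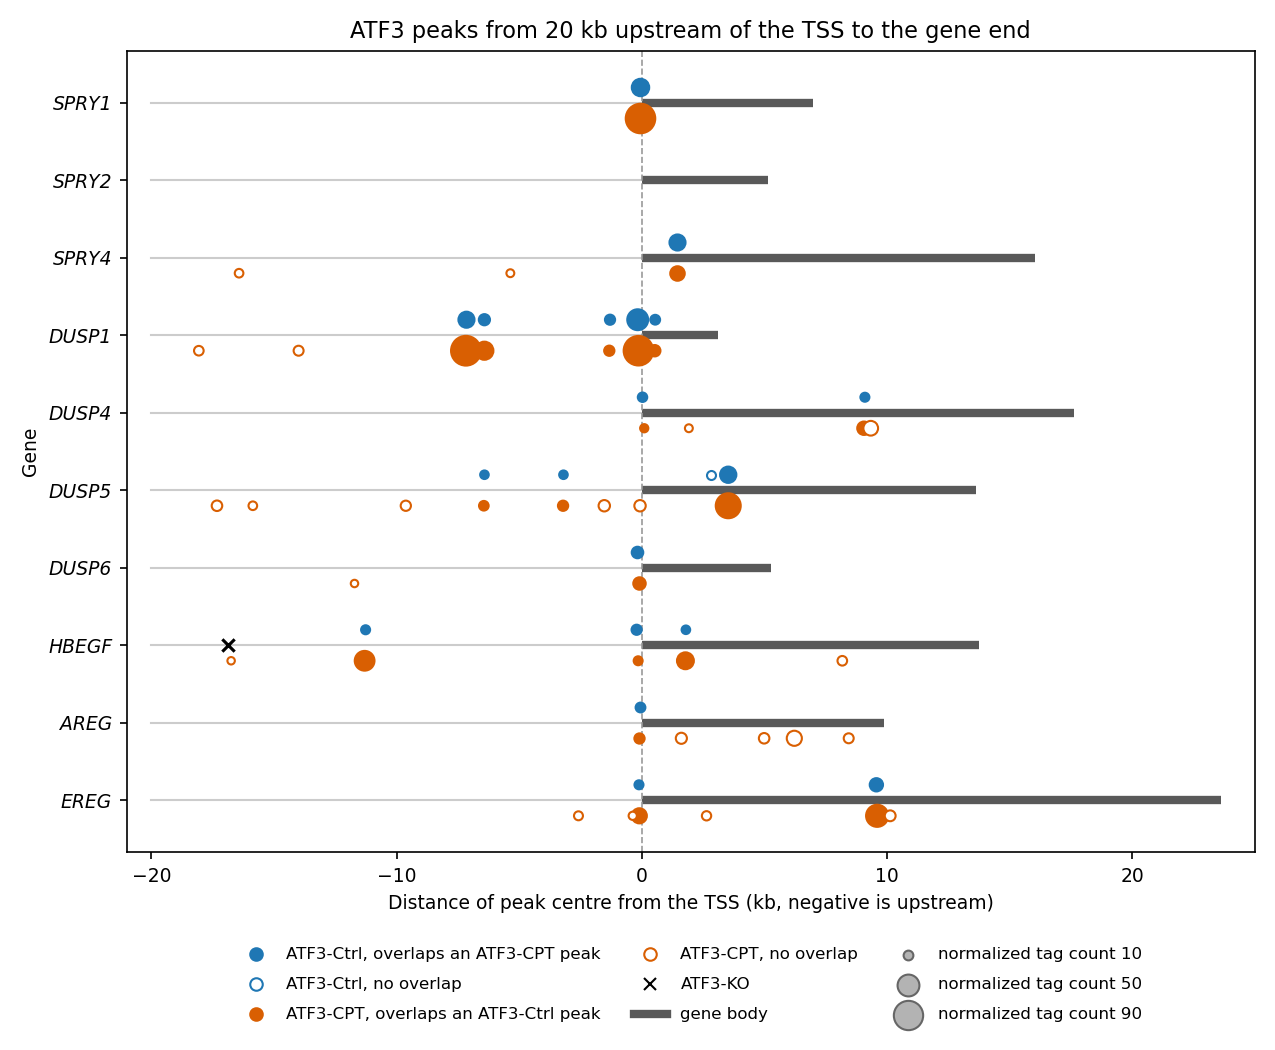
ATF3 peaks around the 10 genes, by distance of the peak centre from the TSS in kb (x axis) and gene (y axis). The area of a circle is proportional to the normalized tag count. Filled circles are peaks that overlap a peak of the other ATF3 list and open circles are peaks that do not. All but 1 of the 20 ATF3-Ctrl peaks (blue) are filled, and 22 of the 41 ATF3-CPT peaks (orange) are open. The cross is the ATF3-KO peak near *HBEGF*.

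Of the 20 ATF3-Ctrl peaks, 19 were still listed after CPT, by an overlap of at least 1 bp (95%, 95% Wilson interval 76.4% to 99.1%), against 79.8% of the whole ATF3-Ctrl list. The remaining peak, in intron 1 of *DUSP5* at 2824 bp from the TSS, had a normalized tag count of 8.5. Of the 41 ATF3-CPT peaks, 22 were new, that is, overlapped no ATF3-Ctrl peak (53.7%, interval 38.7% to 67.9%), against 61.7% of all ATF3-CPT peaks. Each background share lay within the interval of the 10 genes. The intervals cover counting error only, since peaks of 1 library are not replicates of a condition.

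The normalized tag count of a peak is its number of tags per 10000000 tags of the library. The libraries held 12947516 (ATF3-Ctrl), 15457013 (ATF3-CPT), 12820520 (ATF3-KO), 3169743 (p53-CPT) and 1984941 tags (p53-KO). In the ATF3-CPT library 12.76% of tags lay in peaks, against 5.6% in ATF3-Ctrl and 0.56% in ATF3-KO. Over all 27104 sites shared by both ATF3 lists, the median ratio of CPT to Ctrl was 1.79, a shift of 0.84 on the log2 scale. Ratios are therefore also given divided by this median and called relative ratios. Intervals of normalized tag counts (exact Poisson) and of ratios (conditional exact binomial) are 95% intervals for counting error only. With 1 library per condition no test between conditions was possible, so ratios compare these libraries, and the part of library differences in them was not tested.

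*SPRY1* (chr4:124317950-124324915, plus strand) and *SPRY4* (chr5:141689992-141706020, minus strand) encode Sprouty inhibitors of receptor tyrosine kinase signaling. At *SPRY1*, the only peak was centred 58 bp upstream of the TSS. Its normalized tag count was 31.7 (22.7 to 43.0) in ATF3-Ctrl and 91.2 (76.8 to 107.6) in ATF3-CPT. The intervals did not overlap, the ratio was 2.88 (2.02 to 4.19) and the relative ratio was 1.60. The ATF3-CPT peak ranked among the highest 1.42% of its list by normalized tag count, although its sequence, shown above, held neither core.

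*SPRY4* differed from *SPRY1*. Its main peak, in a UTR of exon 1 at 1449 bp from the TSS of the gene record, had normalized tag counts of 27 (18.8 to 37.6) in ATF3-Ctrl and 22 (15.2 to 30.7) in ATF3-CPT. The values overlapped, and the ratio of 0.814 (0.492 to 1.34) did not exclude equal signal. This peak sits beside the start of the canonical transcript, which lies 1434 bp downstream of the outermost TSS. Weak peaks were present only in the ATF3-CPT list, at 5358 bp and 16421 bp upstream, with normalized tag counts of 6.5 and 7.8. An antisense transcript, *SPRY4-AS1*, is annotated over both, and ChIP-seq cannot assign a site to either gene.

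*DUSP1* (chr5:172195099-172198198, minus strand), an immediate-early gene for a nuclear MAP kinase phosphatase, had the highest value of the 10 genes in each ATF3 list. In ATF3-CPT the *SPRY1* promoter, at 91.2, was within counting error of that value. The promoter peak 164 bp upstream had a normalized tag count of 45.6 (34.7 to 58.8) in ATF3-Ctrl and 91.2 (76.8 to 107.6) in ATF3-CPT, a ratio of 2.00 (1.47 to 2.76). A site 7148 bp upstream had 27 (18.8 to 37.6) and 92.5 (78.0 to 109.0), a ratio of 3.42 (2.35 to 5.11). In ATF3-Ctrl the promoter value was the higher of the pair, although the intervals overlapped slightly. In ATF3-CPT the intervals overlapped almost fully. The relative ratios were 1.12 at the promoter and 1.91 at the upstream site. The promoter peak contained the ATF/CRE core and the upstream peak an AP-1 core.

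Another strong site of *DUSP1* lay 6416 bp upstream, with normalized tag counts of 13.1 in ATF3-Ctrl and 34.3 in ATF3-CPT and a ratio of 2.61 (1.49 to 4.81). It also held an AP-1 core. The weaker peaks changed less. In exon 1, at 550 bp from the TSS, the values were 10 and 13.6, a ratio of 1.35 (0.647 to 2.94). At 1293 bp upstream they were 10.8 and 11, a ratio of 1.02 (0.472 to 2.23). Peaks at 13993 bp (10.4) and 18062 bp upstream (9.7) were only in the ATF3-CPT list. A noncoding transcript of the opposite strand is annotated over the *DUSP1* sites from exon 1 to 7148 bp upstream. As at *SPRY4*, ChIP-seq cannot assign these sites to either gene.

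*DUSP5* (chr10:112257665-112271291, plus strand) encodes a nuclear phosphatase of ERK and had 8 ATF3-CPT peaks, more than any other of the 10 genes. Its strongest site, in intron 1 at 3527 bp from the TSS, had a normalized tag count of 27.8 (19.5 to 38.5) in ATF3-Ctrl and 65.3 (53.2 to 79.4) in ATF3-CPT. The ratio was 2.35 (1.59 to 3.54), the relative ratio was 1.31, and the peak carried an AP-1 core. The promoter itself had no ATF3-Ctrl peak, while ATF3-CPT had a peak 69 bp upstream with a value of 13.6 (8.41 to 20.8). Upstream sites at 6414 bp and 3192 bp had 7.7 in ATF3-Ctrl and 9.7 and 11 in ATF3-CPT, and both ratio intervals included 1. A further 4 peaks from 1527 bp to 17322 bp upstream, with values from 7.8 to 13.6, were listed only in ATF3-CPT. A noncoding transcript of the opposite strand, *DUSP5-DT*, is annotated over every upstream peak except that at 69 bp, so these sites cannot be assigned to either gene.

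*DUSP4* (chr8:29190581-29208201, minus strand) and *DUSP6* (chr12:89741012-89746278, minus strand) encode a nuclear and a cytoplasmic phosphatase of ERK. At *DUSP4*, the peak 32 bp from the TSS had 9.3 (4.79 to 16.2) in ATF3-Ctrl and 7.1 (3.55 to 12.7) in ATF3-CPT, a ratio of 0.768 (0.307 to 1.90). An intron 1 site at 9101 bp had 8.5 and 18.8, a ratio of 2.21 (1.07 to 4.90), whose lower bound was close to 1. Beside it, at 9339 bp, a peak with a value of 22.6 (15.8 to 31.5) was listed only in ATF3-CPT. Both of these intronic peaks held AP-1 cores. A weak peak at 1922 bp (6.5) was also listed only in ATF3-CPT. At *DUSP6*, the promoter peak 204 bp upstream had 13.9 (8.24 to 22.0) and 16.2 (10.5 to 23.9), with a ratio of 1.16 (0.610 to 2.26). A peak 11727 bp upstream at 5.8 was only in the ATF3-CPT list, where it was among the weakest. Noncoding transcripts of the opposite strand are also annotated over the *DUSP6* peaks.

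*HBEGF* (chr5:139712428-139726188, minus strand) encodes heparin-binding EGF-like growth factor and held the highest and 1 of the lowest ratios. The intron 2 site at 1801 bp from the TSS had a normalized tag count of 7.7 (3.70 to 14.2) in ATF3-Ctrl and 29.8 (21.8 to 39.7) in ATF3-CPT. Its ratio was 3.85 (1.92 to 8.56) and its ATF3-CPT peak held 2 AP-1 cores. A site 11261 bp upstream had 8.5 (4.24 to 15.2) and 40.8 (31.3 to 52.1), a ratio of 4.80 (2.51 to 10.1). This site lay 2330 bp from the TSS of *SLC4A9*, a neighbouring gene, and so nearer to that gene than to *HBEGF*. The promoter peak 208 bp upstream went the other way in value, from 10.8 (5.91 to 18.1) to 8.4 (4.48 to 14.4), with a ratio of 0.778 (0.337 to 1.78) that did not exclude equal signal. An intron 3 peak at 8180 bp (9.7) was listed only in ATF3-CPT.

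*EREG* (chr4:75230862-75254466, plus strand) encodes epiregulin. Its promoter peak 112 bp upstream had a normalized tag count of 8.5 (4.24 to 15.2) in ATF3-Ctrl and 23.9 (16.9 to 33.0) in ATF3-CPT, with a ratio of 2.82 (1.41 to 6.12). The intron 1 site at 9569 bp had 18.5 (11.9 to 27.6) and 51.1 (40.5 to 63.7), with a ratio of 2.76 (1.73 to 4.55). At neither site did the intervals overlap. The intronic peak held 2 AP-1 cores and the promoter peak held neither core. Another intron 1 peak, at 10133 bp, had a value of 12.3 and an AP-1 core and was only in the ATF3-CPT list, as were peaks at 2643 bp from the TSS and at 367 bp and 2580 bp upstream.

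*AREG* (chr4:75310853-75320722, plus strand) encodes amphiregulin. Its promoter peak 84 bp upstream, with an ATF/CRE core, had 10 (5.35 to 17.2) in ATF3-Ctrl and 11 (6.41 to 17.6) in ATF3-CPT, a ratio of 1.10 (0.501 to 2.45). The other 4 ATF3-CPT peaks lay within the gene and had no ATF3-Ctrl peak. The highest, in intron 4 at 6223 bp, had a value of 23.9 (16.9 to 33.0) and an AP-1 core. All *AREG* values are uncertain, because GRCh37 holds a near-identical copy of the gene (chr4:75480629-75490486). The 6 *AREG* peak sequences matched the copy with 0 or 1 mismatch. ATF3-CPT peaks lay at the copies of all 5 *AREG* peaks, with normalized tag counts from 6.5 to 16.8, and no ATF3-Ctrl peak lay in the window of the copy. How reads that match both places were handled is not given in the sources used here.

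**Figure D2:**
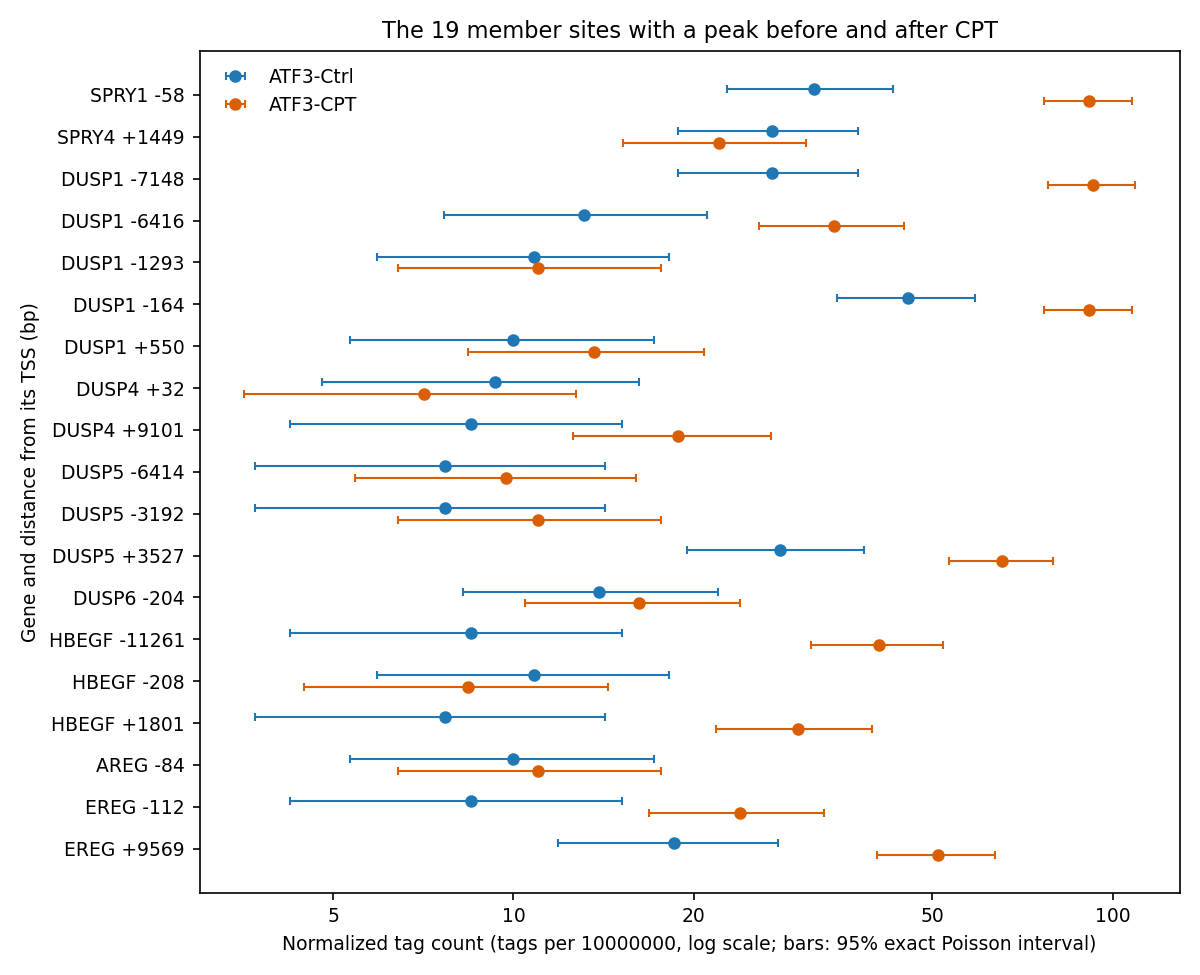
Normalized tag counts (x axis, tags per 10000000 on a log scale) of the 19 sites with a peak in both ATF3 lists, named by gene and distance of the ATF3-Ctrl peak from the TSS (y axis). Points are the values of the ATF3-Ctrl (blue) and ATF3-CPT (orange) libraries, and bars are 95% exact Poisson intervals for counting error. The *SPRY1* and *DUSP1* promoters and the *DUSP1* site at -7148 bp reach 91.2 to 92.5 after CPT, and the *SPRY4*, *DUSP4* and *HBEGF* promoter points lie slightly below their ATF3-Ctrl values.

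Across the 19 shared sites, the median ratio was 2.00 (range 0.768 to 4.80), against 1.79 over all shared sites. A ratio of at least 2 was found at 10 of the 19 sites, against 43.6% of all shared sites, and a ratio of at most 0.5 at 0 sites, against 2.37%. The same 10 sites had a ratio interval above 1, against 47.9% of all, and no site had an interval below 1, against 3.38%. These shares are near the background. A shared site needed a called peak, with a score of at least 9, in each list. Low ratios could therefore hardly occur where the ATF3-Ctrl value was near that threshold, here and over all shared sites. Nothing is concluded from the absence of low ratios. The ratio was above 1 at 16 sites and below 1 at 3, but the relative ratio was above 1 at 10 and below 1 at 9, so at 6 sites, all with intervals that included 1, the direction depended on the scaling. Divided by the median of all sites, the ratio interval lay above 1 at 4 sites (14.2% of all sites), below 1 at 2 sites (14.8% of all sites) and included 1 at 13. On that scale, 2 sites were at 2 or above (8.45% of all sites), namely the *HBEGF* sites in intron 2 (2.15) and 11261 bp upstream (2.67). Another 3 sites were at 0.5 or below (15.1% of all sites), the promoters of *SPRY4* (0.453), *HBEGF* (0.433) and *DUSP4* (0.428).

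The ratios differed by distance from the TSS. The 11 sites within 2 kb of the TSS had a median ratio of 1.16, and 4 of them were at 2 or above, against a median of 1.34 and 24.2% of all shared sites within 2 kb of a TSS. The 8 sites beyond 2 kb had a median of 2.48, and 6 of them were at 2 or above, against a median of 1.96 and 48.9% of all distal sites. The promoters of *SPRY1*, *EREG* and *DUSP1* had intervals above 1, while those of *SPRY4*, *DUSP4*, *DUSP6*, *HBEGF* and *AREG* had intervals that included 1. Many of these intervals overlapped, as at *DUSP1* (1.47 to 2.76) and *AREG* (0.501 to 2.45), so they do not separate all of these promoters. These are intervals of the unscaled ratio. Divided by the median of all sites, only the *SPRY1* promoter kept an interval above 1 (1.13 to 2.33), those of *DUSP1* (0.817 to 1.54) and *EREG* (0.784 to 3.41) included 1, and those of *SPRY4* (0.274 to 0.748) and *HBEGF* (0.188 to 0.994) lay below 1. Beyond 2 kb, the scaled interval lay above 1 at *HBEGF* 11261 bp upstream (1.40 to 5.62) and *DUSP1* 7148 bp upstream (1.31 to 2.84). At every other site beyond 2 kb it included 1. The difference between near and distant sites of these genes was not tested.

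**Figure D3:**
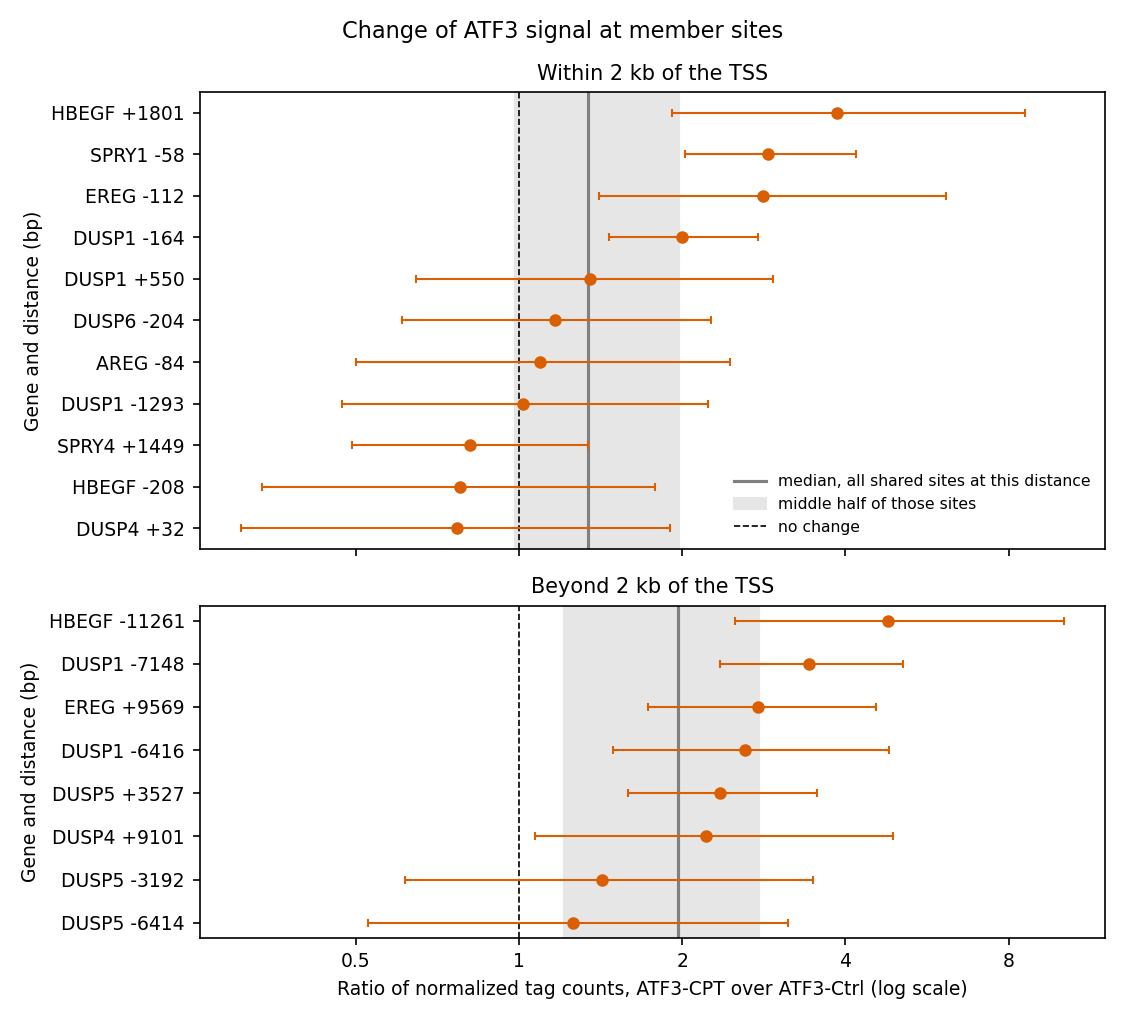
Ratio of normalized tag counts, ATF3-CPT over ATF3-Ctrl (x axis, log scale), at the 11 sites within 2 kb of the TSS (top) and the 8 sites beyond it (bottom), each named by gene and distance in bp (y axis). Points are ratios with 95% conditional exact binomial intervals, the grey line and band are the median and the quartile range of all shared sites at that distance, and the dashed line marks equal signal. At the top, 3 points lie left of the dashed line, and at the bottom all 8 lie right of it, from 1.26 to 4.80.

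The 22 ATF3-CPT peaks without an ATF3-Ctrl peak were mostly weaker than the shared ATF3-CPT peaks. Their normalized tag counts had a median of 10.05 (range 5.8 to 23.9), against 22 (7.1 to 92.5) for the 19 shared ATF3-CPT peaks of the same genes. Over the main chromosomes these medians were 8.4 and 22.6. The 20 ATF3-Ctrl peaks of the 10 genes had a median of 10.4, close to that of the 22. Of the 22 peaks, 5 lay within 2 kb of the TSS, against 13.7% of all such peaks. These shares are not alike, because the window rule keeps the 22 near a gene. The 13.7% also covers peaks far from any gene. The ATF3-Ctrl list held no peak with a findPeaks score, which counts at most 1 tag per position, under 9, so binding below this was not detectable. Absence from the ATF3-Ctrl list is therefore not absence of binding.

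An exact core within 100 bp of the peak centre was present in 9 of 20 ATF3-Ctrl peaks (45%, interval 25.8% to 65.8%), against 35.4% of all ATF3-Ctrl peaks. It was present in 15 of 41 ATF3-CPT peaks (36.6%, interval 23.6% to 51.9%), against 43.9% of all. Neither interval excluded its background share. None of the member sequences of the same width 1000 bp away held a core, against 3.4% and 3.51% of all such flanks. AP-1 cores were found in 7 of the 20 and 13 of the 41 peaks (35% and 31.7%), against 33.5% and 42.6% of all peaks. The ATF/CRE core was found only at the promoters of *DUSP1* and *AREG*, in 2 of 20 and 2 of 41 peaks, against 2.04% and 1.46% of all peaks. Cores were present at 7 of the 10 shared sites whose ratio interval lay above 1 (65.4% of all such sites) and at 2 of the 9 others (23.6% of all such sites). The 3 sites that had an interval above 1 without a core were the *SPRY1* promoter, the *EREG* promoter and the *HBEGF* site 11261 bp upstream. Of the ATF3-CPT peaks without an ATF3-Ctrl peak, 6 of 22 held a core, against 44.1% of all such peaks. A match describes the letters and does not show which factor bound.

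No peak of p53-CPT or p53-KO lay in the window of any of the 10 genes, against 21.8% and 17.5% of all protein-coding genes. These libraries were shallow, and the p53-CPT list held no peak with a score under 7, so weaker p53 binding was not detectable. With 50 kb upstream in place of 20 kb, p53-CPT peaks lay 29330 bp upstream of *AREG* (154.6) and 34265 bp upstream of *DUSP5* (44.2). The first also overlapped an ATF3-CPT peak and no p53-KO peak, while the second overlapped a p53-KO peak. A p53-KO peak without a p53-CPT counterpart lay 34255 bp upstream of *DUSP4* (25.2). The ATF3-KO list had 1 peak in the windows, 16874 bp upstream of *HBEGF*, with a normalized tag count of 7.8 (3.74 to 14.3), against 11.4% of all genes with such a peak. It overlapped the weak ATF3-CPT peak 16745 bp upstream (5.8), which lay in *SLC4A9* and had no ATF3-Ctrl counterpart. None of the other 60 ATF3 peaks of the 10 genes overlapped an ATF3-KO peak, against 5.38% of all ATF3-Ctrl and 2.6% of all ATF3-CPT peaks that did.

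Of 52 other genes of the pathway, 42 had an ATF3-Ctrl peak and 49 an ATF3-CPT peak, and 42 had more peaks after CPT, against 65.2%, 81% and 63.4% of all protein-coding genes. Their windows were longer, with a median of 86.1 kb against 47.2 kb. Peaks only after CPT were found at 7 of the 52 genes, against 16.8% of all protein-coding genes. They included *IL17RD*, *EPGN*, *SOS2*, *ARAF* and *ETV4*, and *SPRY3*, *DUSP9* and *MAPK3* had peaks in neither list. All 4 receptor genes and all 4 genes of ligand shedding had peaks in both lists. Several of their windows were long, up to 1183 kb at *ERBB4*. The share of all genes with peaks in both lists was not computed, so nothing is concluded from these counts. *PTPN11*, which encodes the phosphatase SHP2, and *BRAF* had fewer peaks after CPT, from 4 to 3 and from 2 to 1.

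**Figure D4:**
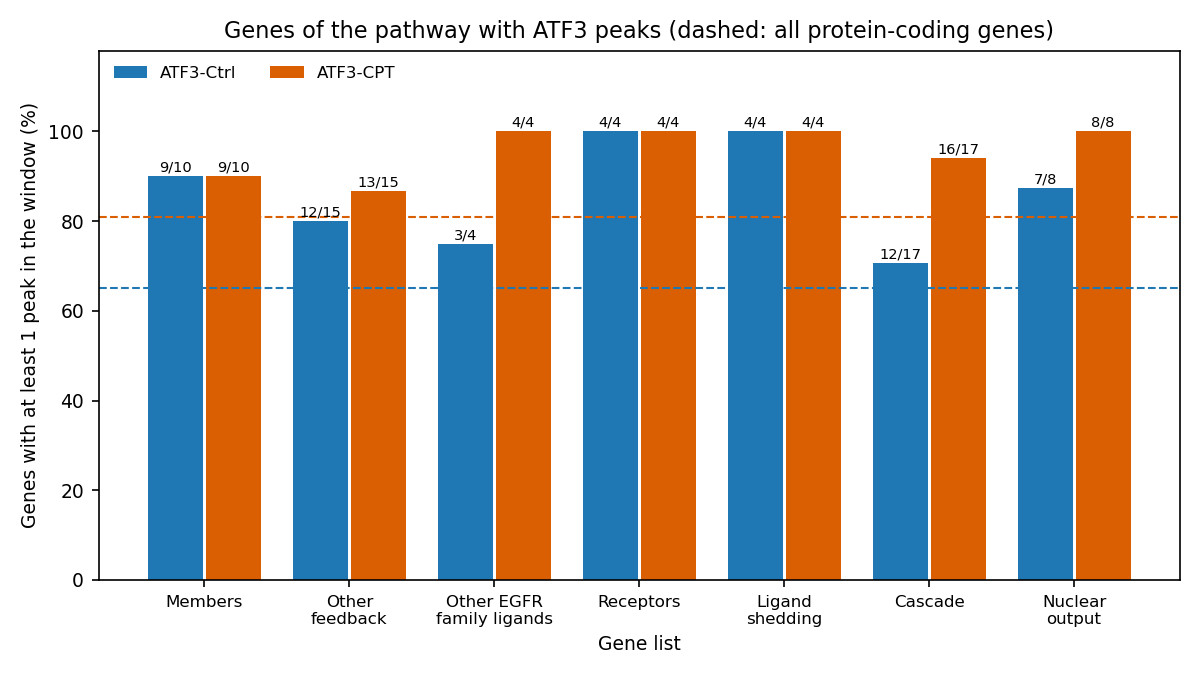
Share of genes with at least 1 ATF3 peak in the window (y axis, %) for the 10 genes described here (Members) and for the other genes of the pathway by role (x axis), in ATF3-Ctrl (blue) and ATF3-CPT (orange). Numbers above the bars are genes with a peak of genes listed, and dashed lines are the shares of all protein-coding genes, 65.2% and 81%. The cascade list goes from 12 to 16 of 17 genes, while the receptor and shedding lists are at 4 of 4 in both libraries.

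The 6 genes with the highest-scoring ATF3-CPT peaks cover several roles. *RHBDF2*, whose product iRhom2 supports ADAM17, had the highest, with 75.7 in ATF3-Ctrl and 291.1 in ATF3-CPT at 16844 bp from its TSS, a ratio of 3.85 (3.09 to 4.84). *EGFR*, the receptor itself, had 50.2 and 98.3 at 114004 bp, a ratio of 1.96 (1.46 to 2.66). *DUSP8*, a phosphatase of stress-activated MAP kinases, had 38.6 and 116.5 at 66 bp upstream, a ratio of 3.02 (2.19 to 4.21). *CBL*, a ubiquitin ligase for EGFR, had 22.4 and 93.2 at 12381 bp, a ratio of 4.16 (2.78 to 6.43). The ratio was lower at *SPRED2*, a Sprouty-related inhibitor, at 1.61 (1.20 to 2.19), and at *ETV5*, an ETS factor, at 1.24 (0.947 to 1.63), where the interval included 1. The ATF3-CPT values at *RHBDF2*, *DUSP8*, *EGFR* and *CBL* exceeded the highest value of 92.5 among the 10 genes. Those at *EGFR* and *CBL* lay within the counting interval of that value (78.0 to 109.0). These 6 genes were chosen by ATF3-CPT score from a longer list with longer windows. The choice itself favours high ATF3-CPT values and high ratios, so neither sets these genes apart. The median ratio over all shared sites was 1.79.

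p53-CPT peaks lay in the windows of 17 of the 52 genes, 20 peaks in all, against 21.8% of all protein-coding genes, whose windows were shorter. Of these, 10 also overlapped a p53-KO peak, including those at *EGF*, *SPRY3*, *ETV1*, *ERBB4*, *RHBDF2*, *ERRFI1*, *MAP2K1*, *ERBB2* and *NF1*. The strongest p53-CPT peak of the list, at *EGF* (183.0), was among them. The 10 peaks absent from the p53-KO list lay at *TGFA* (75.7), *BRAF* (47.3), *DUSP8* (47.3), *KSR1* (31.5), *ETV4* (25.2), *SPRED2* (22.1), *ETV5* (18.9), *NF1* (28.4) and *ERBB4* (50.5 and 18.9). The p53-KO list held no peak with fewer than 5 tags, and each tag of that library counts as 5.04 normalized tags. At equal signal, the peaks at 22.1 and 18.9 would have held fewer tags than that, and *ETV4* (25.2) lay at this limit. For these peaks, absence from the p53-KO list does not show that signal depended on p53. Only the *TGFA* peak, 16080 bp upstream of that ligand gene, overlapped an ATF3-CPT peak. The shares of all p53-CPT peaks that overlap p53-KO or ATF3-CPT peaks were not computed. Nothing is therefore concluded from these overlap counts.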

How the data were processed

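ATF3 and p53 ChIP-seq was measured in 5 HCT116 libraries, grouped by their labels, with 1 library per condition. The authors aligned reads to hg19 with BWA 0.6.1. They called peaks per library with HOMER 4.1 and no input control. Per the file headers, thresholds were an FDR of 0.001, a 4-fold excess over the local 10 kb and a local Poisson p of 1e-04. The deposited normalized tag count, a signal, gives tags per 10000000 sequenced tags. The deposited findPeaks score counts tags with at most 1 per position, without depth adjustment. At some peaks it exceeds the tags behind the normalized tag count, so the scores and these counts do not cover the same tags. The *HBEGF* site 11261 bp upstream, for example, had a score of 13 and 11 tags in ATF3-Ctrl. The deposited focus ratio (a fraction), p-values and fold ratios over the local region and clonal fold were not used.

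Tags were recovered from normalized tag counts and the totals of the headers, and 100% of values came out whole within the rounding of 0.1. Genes came from GENCODE release 44 on GRCh37, with 1 TSS per gene, the outermost 5′ end. Peaks were shared at an overlap of 1 bp, and a shared site used the highest-scoring overlapping ATF3-CPT peak. Python 3.11.15, scipy 1.17.1 and pysam 0.24.0 were used, and the scripts were tested on simulated data. No replicate test was possible. All 10 genes are reported, with their highest-scoring and TSS-nearest peaks and the 5 highest and 5 lowest ratios, and of the other pathway genes the 6 with the highest-scoring ATF3-CPT peaks and those with p53-CPT peaks, except that some genes are not reported here. Other peaks and genes named were chosen after their values were seen. The genes and lists were chosen with earlier results of these data known. Alternatives were the window, TSS, score, overlap, scaling, core search and removal of single genes or peaks.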

Additional observations from a re-analysis of the deposited data

How the results depend on the processing

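Of 100 recomputed values of the main results, 79 stayed within 1.5 times (counts) or within the 95% interval (shares and the median). The other 21 did not. Counts and shares have no direction here, and the median ratio, which has one, stayed above 1 in every setting. A window from 5 kb upstream left 13 ATF3-CPT peaks without an ATF3-Ctrl peak and 0 ATF3-KO peaks. A window from 50 kb gave 37 ATF3-Ctrl and 67 ATF3-CPT peaks, 36 of them without an ATF3-Ctrl peak, 17 sites at a ratio of at least 2, and 2 p53-CPT and 2 p53-KO peaks. A score of at least 20 in both lists left 6 ATF3-Ctrl and 16 ATF3-CPT peaks, with 100% of the first kept. Of the second, 10 had no ATF3-Ctrl peak of that score, but some overlapped a lower-scoring one, such as *HBEGF* 11261 bp upstream. This setting left 5 sites at a ratio of at least 2 and 26 other pathway genes with an ATF3-Ctrl peak. With only as many top-scoring ATF3-CPT peaks as ATF3-Ctrl has, 70% of ATF3-Ctrl peaks were kept and 8 ATF3-CPT peaks (36.4%) had no ATF3-Ctrl peak. Division by the median of all shared sites left 2 sites at 2 or above and 3 at 0.5 or below, against 10 and 0 without it. The median fell to 0.16 on the log2 scale. With 1 mismatch allowed, cores were found in 75% and 73.2% of peaks. Apart from what each setting itself removes or adds, the cause was not tested. Leaving out *DUSP1*, *AREG* or the peaks nearer to another gene, alternatives chosen after seeing the data, moved no main value by over 1.5 times. Of 38 recomputed ratios of single sites, 7 moved beyond their counting interval, all under the division by the median, which also took 6 sites from above 1 to below 1. With the findPeaks score in place of the normalized tag count, the *AREG* promoter turned from 0.13 to -0.05 on the log2 scale. No paired analysis was possible because each group had 1 library.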
